A study of Homo sapiens with 12 samples.

Results

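The comparison described here set KDM3A knockout (KO) cells to which serum had been returned against KO cells that had never lost it. The cells were HCT116, a human colorectal carcinoma line, and the KDM3A protein removes methyl groups from lysine 9 of histone H3. RNA was purified on oligo-dT beads and sequenced in 3 culture states. Refed KO cells had fetal bovine serum added to serum-free culture after 24 h of starvation, starved KO cells were held without serum, and mock KO cells grew in the normal state. Refed, starved and mock wild type (WT) HCT116 cells completed the 6 groups. The time from serum addition to harvest, the way the knockout was made and whether it was 1 clone are not given in the sources used here.

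Levels were FPKM as the authors deposited them, sequenced fragments adjusted for transcript length and for the size of the library. The labels list 12 samples, 2 per group, but each group has 1 deposited column, and how its 2 samples relate to that column is not stated. Each group therefore entered as 1 value, with no spread between replicates, no test and no p-value, and "higher" and "lower" below describe these columns only. Of 26372 gene symbols, the comparison covers the 12739 that reached 1 FPKM in the refed or the mock KO column. TSPAN5 lay just inside that limit at 1.00012 FPKM and IGSF9B just outside it at 0.999946 FPKM. Differences are given as the log2 ratio of (FPKM + 1), which understates the difference of transcripts near or under 1 FPKM, and a transcript was called higher or lower at a log2 ratio of 1, that is 2-fold, or more.

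Serum carries growth factors and lipids. Its return to deprived cells activates the ERK, SRF and YAP pathways within minutes, and these switch on early response genes, many of which encode transcription factors or the phosphatases that shut ERK signalling down again. Other serum-responsive programmes answer to supply: sterol synthesis is switched on by SREBP2 when cholesterol is scarce, hypoxia genes by HIF when oxygen is scarce, and the mitotic genes are expressed late in the division cycle. Comparing refed with mock cells asks, for each transcript, whether it is back at the level of an uninterrupted culture, beyond it, or still away from it.

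KDM3A itself stood at 3.59 FPKM in refed, 3.01 FPKM in starved and 3.15 FPKM in mock KO cells, against 19.8 FPKM in refed, 17.8 FPKM in starved and 41.3 FPKM in mock WT cells. The 3 KO columns summed to 593554, 579160 and 565680 FPKM in refed, starved and mock cells without short RNA features, and 12409, 12410 and 12404 genes reached 1 FPKM in them. Of 14 epithelial markers, 10 reached 1 FPKM in KO cells, none was called, and their median log2 ratio was 0.05. KRT20, VIL1, CDH17 and LGALS4 of that list stayed below the limit. The 10 endothelial markers summed to 5.37, 5.11 and 5.93 FPKM in refed, starved and mock KO cells, but to 196 FPKM in mock WT cells. EEF1A1, a translation factor that every cell uses, is listed at 0 in all 3 KO columns. It is also at 0 in starved and mock WT cells, but at 3742 FPKM in refed WT cells. A 0 in these files therefore need not mean absence.

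Most transcripts of refed KO cells were near their mock level. The median log2 ratio of refed over mock was -0.05 over the 12739 features, 317 were at least 2-fold higher in refed cells (2.49%) and 127 at least 2-fold lower (0.997%). Short RNA features (small nucleolar RNAs, microRNAs and similar), made up 290 of the features but 122 of those higher and 49 of those lower. Without them 195 of 12449 genes were higher (1.57%) and 78 lower (0.627%). None of these genes was listed at 0 in either column. A 4-fold difference was reached by 28 of the higher genes and by 2 of the lower ones, PDGFA and TNFRSF6B.

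Genes were then sorted by where starvation had left them, with starved and refed cells set against the same mock value, so that the classes describe 3 numbers and are not independent comparisons. In starved cells 159 features were at least 2-fold lower than mock (1.25%) and 89 at least 2-fold higher (0.699%). Without short RNA these were 108 and 33, which are 0.869% and 0.265% of the genes at 1 FPKM in starved or mock cells. Of the 108 lowered genes, 51 stayed at least 2-fold lower in refed cells, 52 returned to within 2-fold of mock, and 5 overshot to at least 2-fold higher. Return was mostly partial: only 21 of the 52 came back to within 1.5-fold. The 108 lowered genes had a median of 46.4% of the mock level in refed cells, against 39.5% in starved cells, and 28 of them differed by less than 1.1-fold between refed and starved cells. Of the 33 raised genes, 29 stayed higher in refed cells, 4 returned and none overshot. Only 1 of the 4 came within 1.5-fold, and the median of the 4 was 191% of mock in refed and 282% in starved cells. The 33 raised genes had a median of 237% of mock in refed cells and 244% in starved cells. The largest class lay outside both: 161 genes were within 2-fold of mock in starved cells and at least 2-fold higher in refed ones. Those 161 had a median of 110% of mock in starved and 279% in refed cells. Some of them were already past 2-fold of mock in FPKM in starved cells, E2F1 at 207% among them. They are in the class because of the pseudocount. Another 27 were within 2-fold of mock in starved cells and at least 2-fold lower in refed ones. Those 27 had a median of 51.6% of mock in starved and 42.9% in refed cells. Over genes at 1 FPKM in refed or starved cells, refed cells had 178 genes at least 2-fold higher than starved ones (1.45%) and 2 at least 2-fold lower (0.0162%).

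**Figure D1:**
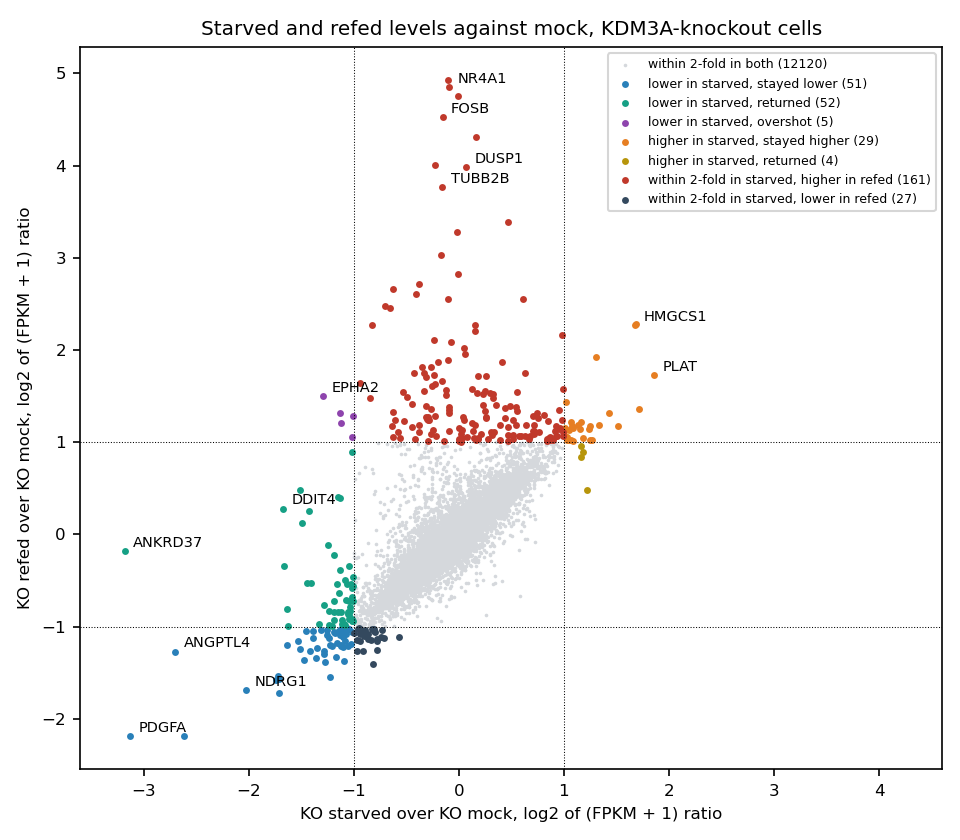
Log2 ratio of (FPKM + 1) of refed over mock KO cells (vertical axis) against that of starved over mock KO cells (horizontal axis), 1 point per gene without short RNA features, with dotted lines at 2-fold. The 161 genes above the upper line in the middle were within 2-fold of mock in starved cells on this scale. The 51 genes at lower left stayed lower, and the 29 at upper right stayed higher. Both axes share the mock value.

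Transcripts beyond the mock level were led by early response regulators. This list and those below were drawn up with earlier results of these data known, so their counts and medians are descriptions. Of 32 early response regulators listed, 31 reached 1 FPKM, 20 were at least 2-fold higher in refed than in mock KO cells and none was lower. Their median log2 ratio was 1.49, against -0.05 for all features, while starved over mock had a median of -0.24 with no member called. The other 11 measured members were within 2-fold of mock in refed cells, 2 of them below it. Counts of every list are to be read beside the shares over all genes without short RNA, 1.57% higher and 0.627% lower.

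The NR4A family of orphan nuclear receptors held 3 of the largest differences. NR4A1 stood at 796 FPKM in refed, 24.9 FPKM in starved and 26.6 FPKM in mock cells. NR4A2 stood at 289 FPKM in refed, 9.65 FPKM in starved and 9.71 FPKM in mock cells. NR4A3, the least abundant of the family, was at 72.8 FPKM in refed, 1.25 FPKM in starved and 1.42 FPKM in mock cells. The log2 ratios of refed over mock were 4.85, 4.76 and 4.93 for NR4A1, NR4A2 and NR4A3, and in each case starved and mock values were alike.

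Genes of the AP-1 family, leucine zipper factors that bind DNA as dimers, followed. FOSB was at 62.7 FPKM in refed, 1.5 FPKM in starved and 1.77 FPKM in mock cells, and FOS at 55.7, 5.17 and 5.94 FPKM in the same order. ATF3, a stress-induced member of the wider family, was at 223 FPKM in refed, 11 FPKM in starved and 13.0 FPKM in mock cells. FOSL1, which was already expressed in mock cells, reached 216 FPKM in refed cells, against 25.9 FPKM in starved and 34.6 FPKM in mock cells. The JUN genes differed less: JUN had a log2 ratio of 1.89, whereas JUNB at 0.93 and JUND at 0.83 did not reach 2-fold.

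The EGR zinc finger factors ran from low levels. EGR3 was at 16.2 FPKM in refed, 0.75 FPKM in starved and 0.767 FPKM in mock cells, and EGR2 at 9.73, 0.713 and 0.834 FPKM. EGR1, the most abundant, was at 46.2 FPKM in refed, 11.1 FPKM in starved and 13.3 FPKM in mock cells, a log2 ratio of 1.72, and EGR4 did not reach 1 FPKM. SRF, the factor that binds CArG boxes in many early promoters, was itself at 50.8 FPKM in refed, 13.3 FPKM in starved and 16 FPKM in mock cells. Among Krüppel-like factors KLF2 had a log2 ratio of 2.11 and KLF10 1.19, while KLF4 at 0.99 and KLF5 at -0.08 were not called. MYC, a growth regulator often counted with early genes, stood at 139 FPKM in refed, 154 FPKM in starved and 122 FPKM in mock cells, a log2 ratio of 0.19. IER5 was the member furthest below mock, with a log2 ratio of -0.60.

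The promoters of these genes were read for known motifs in the RefSeq windows of build GRCh38.p14, which run from 250 bases before to 50 bases after each start. Because the deposited values were made on hg19, the coordinates given are those of GRCh38.p14 and were not converted. A match describes the letters and is not evidence of binding. The CArG box was found on either strand in 3 of 30 promoters of the 23 early response genes matched (10%), against 1.29% of all 35116 promoters. TGACG, the core of the cAMP response element, was found on either strand in 16 of those 30 (53.3%), against 24.6% of all promoters. The window of EGR2 (chr10:62816317-62816616, minus strand), shown for its CArG box in capitals, and that of NR4A3 (chr9:99821635-99821934, plus strand), shown for its 4 TGACG matches in capitals, CGTCA being the same motif on the other strand, read 5′ to 3′:
EGR2: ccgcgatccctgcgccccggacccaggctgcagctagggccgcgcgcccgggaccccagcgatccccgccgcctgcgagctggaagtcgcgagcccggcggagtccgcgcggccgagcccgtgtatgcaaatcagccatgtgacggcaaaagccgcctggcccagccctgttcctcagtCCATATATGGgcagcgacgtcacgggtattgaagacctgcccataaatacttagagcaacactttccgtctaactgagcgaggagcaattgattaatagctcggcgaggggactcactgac
NR4A3: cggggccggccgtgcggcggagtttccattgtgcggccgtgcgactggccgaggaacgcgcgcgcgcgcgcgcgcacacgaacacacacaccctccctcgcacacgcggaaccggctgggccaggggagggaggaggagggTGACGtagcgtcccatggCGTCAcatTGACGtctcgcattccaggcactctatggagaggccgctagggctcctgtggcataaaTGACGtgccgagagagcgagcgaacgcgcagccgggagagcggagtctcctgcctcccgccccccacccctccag

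Several feedback inhibitors of MAP kinases were above mock. Of 21 genes listed for ERK feedback and output, 20 reached 1 FPKM. In refed cells 6 were at least 2-fold higher, against 1.57% of all genes without short RNA, with none lower. The median log2 ratio was only 0.06. Apart from EPHA2, described further on, the other 5 were dual specificity phosphatases, which remove phosphate from MAP kinases. DUSP1 was at 115 FPKM in refed, 6.70 FPKM in starved and 6.35 FPKM in mock cells. DUSP2 was at 86.8 FPKM in refed, 10.5 FPKM in starved and 7.36 FPKM in mock cells, and DUSP5 at 300.4, 34.3 and 61.5 FPKM in the same order. DUSP8 and DUSP4 had log2 ratios of 1.75 and 1.47. Other genes of the list were not called: DUSP6, another such phosphatase, had a log2 ratio of 0.72, SPRY4 of 0.18, ETV4 of -0.03 and ETV5 of -0.55.

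YAP/TEAD targets, which report on the Hippo pathway, were likewise uneven. Of 22 listed, 17 reached 1 FPKM and 4 were higher, against 1.57% of all genes without short RNA. None was lower and the median log2 ratio was 0.17. CYR61, a secreted matrix protein, stood at 309 FPKM in refed, 16.6 FPKM in starved and 14.7 FPKM in mock cells. NUAK2, a kinase of the AMPK family, stood at 6.34 FPKM in refed, 0.636 FPKM in starved and 0.723 FPKM in mock cells, and AMOTL2, a YAP-binding angiomotin relative, at 24.4, 11 and 10.9 FPKM. CTGF, the closest relative of CYR61 in the list, reached only 5.09 FPKM in refed cells, against 1.20 FPKM in starved and 1.34 FPKM in mock cells. ANKRD1, another common YAP reporter, did not reach the limit. Structural genes under SRF lay closer to mock: of 17 measured SRF and actin genes, 1 was called, TAGLN, which encodes an actin-binding protein of smooth muscle and stood at 28.4 FPKM in refed, 5.98 FPKM in starved and 7.36 FPKM in mock cells. ACTG1, the actin gene with the highest level, was at 2489 FPKM in refed, 1703 FPKM in starved and 3139 FPKM in mock cells, and the list had a median log2 ratio of 0.08.

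Ligands of the EGF receptor took opposite positions. AREG was at 578 FPKM in refed, 95.4 FPKM in starved and 184 FPKM in mock cells, a log2 ratio of 1.65, and HBEGF at 8.95, 2.45 and 3.21 FPKM, a log2 ratio of 1.24. TGFA, which binds the same receptor, remained 2-fold lower, at 13.0 FPKM in refed, 10.1 FPKM in starved and 28.1 FPKM in mock cells. EREG and BTC were not called, with log2 ratios of 0.44 and 0.62. EGFR itself was at 5.56 FPKM in refed, 5.61 FPKM in starved and 8.75 FPKM in mock cells, a log2 ratio of -0.57. Over the 8 measured genes of the 12 listed the median log2 ratio was 0.45.

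**Figure D2:**
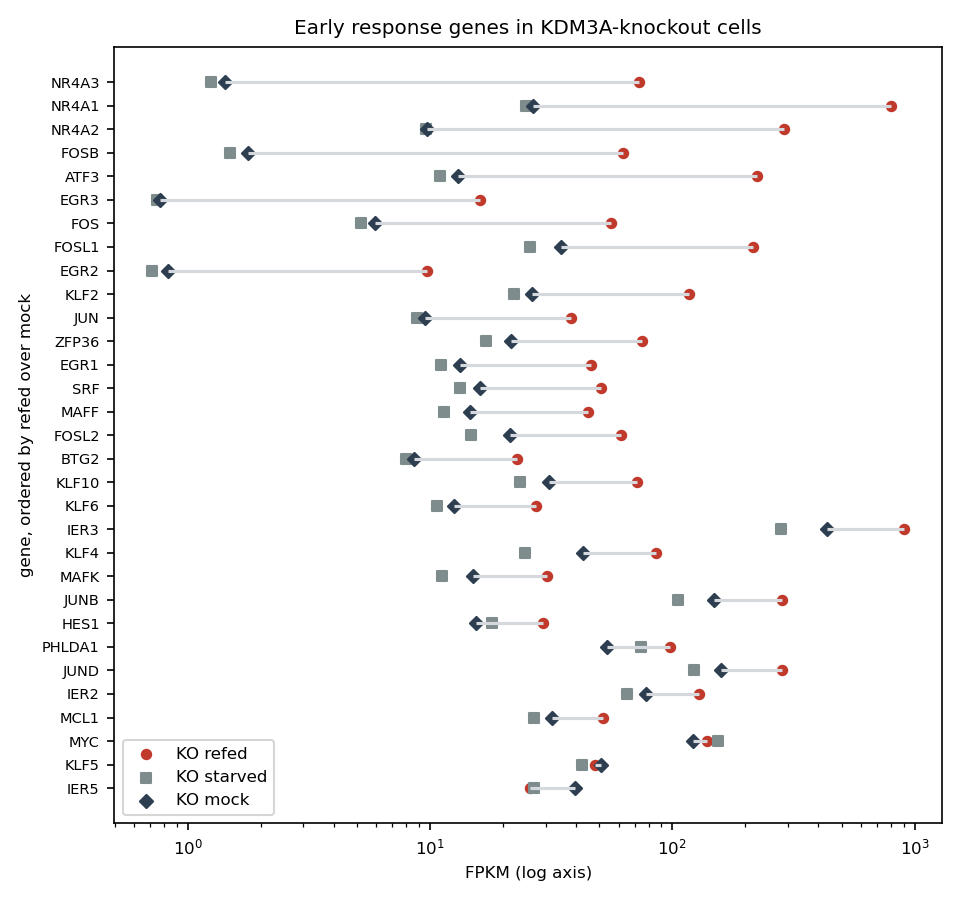
FPKM on a log axis for the 31 measured early response transcription factors and regulators in refed, starved and mock KO cells, 1 value per group. The refed point of NR4A1 lies at 796 FPKM and its starved and mock points at 24.9 and 26.6 FPKM, and most genes share that arrangement.

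Outside these lists, several large differences belonged to genes of other kinds. SIK1, a kinase that restrains CREB coactivators, was at 10.2 FPKM in refed, 0.567 FPKM in starved and 0.571 FPKM in mock cells. CSRNP1, a nuclear protein, was at 44.8 FPKM in refed, 3.71 FPKM in starved and 6.26 FPKM in mock cells. THBS1, the matrix protein thrombospondin, was at 14.0 FPKM in refed, 0.764 FPKM in starved and 1.30 FPKM in mock cells. TUBB2B, a beta tubulin best known from neurons, was at 20.1 FPKM in refed, 0.392 FPKM in starved and 0.550 FPKM in mock cells, a log2 ratio of 3.76. Its near-identical neighbour TUBB2A was at 39.0 FPKM in refed, 12.2 FPKM in starved and 18.4 FPKM in mock cells. How reads shared by TUBB2A and TUBB2B were assigned is not given, so the values of both are uncertain. The other 11 of 13 tubulins were not called and the list median was -0.16.

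Among genes that starvation had lowered, the 5 that overshot were cell surface and membrane genes or a ring finger gene. EPHA2, a receptor tyrosine kinase, stood at 169 FPKM in refed, 23.7 FPKM in starved and 59.3 FPKM in mock cells. PLAUR, the urokinase receptor, stood at 258 FPKM in refed, 46.5 FPKM in starved and 103 FPKM in mock cells. CD55, which protects cells from complement, stood at 73.0, 16.5 and 34.6 FPKM in refed, starved and mock cells, MYADM at 46.1, 8.65 and 18.4 FPKM, and RNF223 at 25.5, 4.28 and 10.4 FPKM. All 5 were thus lowest in starved and highest in refed cells, with refed between 2.11-fold and 2.86-fold of mock.

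Full return was shown by several hypoxia and stress genes. ANKRD37, a HIF target, had the deepest starvation difference of the named returned genes: it was at 31.8 FPKM in refed, 3.12 FPKM in starved and 36.3 FPKM in mock cells, or 87.8% of the mock level in refed cells against 8.60% in starved ones. DDIT4, which inhibits mTORC1, was at 278 FPKM in refed, 71.4 FPKM in starved and 229 FPKM in mock cells. ERRFI1, an inhibitor of the EGF receptor, was at 149.5 FPKM in refed, 59.1 FPKM in starved and 189.7 FPKM in mock cells. SLC2A3, a glucose transporter, was at 7.35 FPKM in refed, 1.72 FPKM in starved and 6.65 FPKM in mock cells. ARTN, a ligand of the GDNF family, GDF15, a secreted stress factor, and the factors CEBPB and BCL3 were slightly beyond mock in refed cells, at 143%, 119%, 132% and 134% of it. SERTAD2 and TMEM158 came back within 2-fold but not within 1.5-fold, at 48.9% and 55.6% of mock in refed cells, against 30.7% and 29.7% in starved cells. SERTAD2 is inside the class because of the pseudocount, its FPKM ratio being slightly past 2-fold.

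Other lowered genes stayed away from mock. PDGFA, a growth factor for mesenchymal cells, was at 14.6 FPKM in refed, 7.18 FPKM in starved and 70.4 FPKM in mock cells. TNFRSF6B, a decoy receptor for death ligands, was at 38.9 FPKM in refed, 28.7 FPKM in starved and 180.2 FPKM in mock cells, though it overlaps RTEL1 read-through transcripts and strand use is not stated. SEMA4B, a semaphorin, was at 19.9 FPKM in refed, 20 FPKM in starved and 67.7 FPKM in mock cells, and MKNK2, a kinase of the translation factor eIF4E, at 31.3, 28.3 and 95 FPKM. For SEMA4B and MKNK2 the refed and starved values were nearly equal. Over the whole class of 51 genes the median was 40.4% of mock in refed cells and 38.9% in starved cells. CIB1, a calcium and integrin binding protein, and INSIG2, which retains SREBPs in the endoplasmic reticulum, were also in it, at 38.6% and 32.5% of mock in refed cells. DBP, a circadian output factor, was at 31.6% of mock in refed and 40.5% in starved cells, the only one of 11 measured clock genes called, in a list with a median log2 ratio of -0.14.

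**Figure D3:**
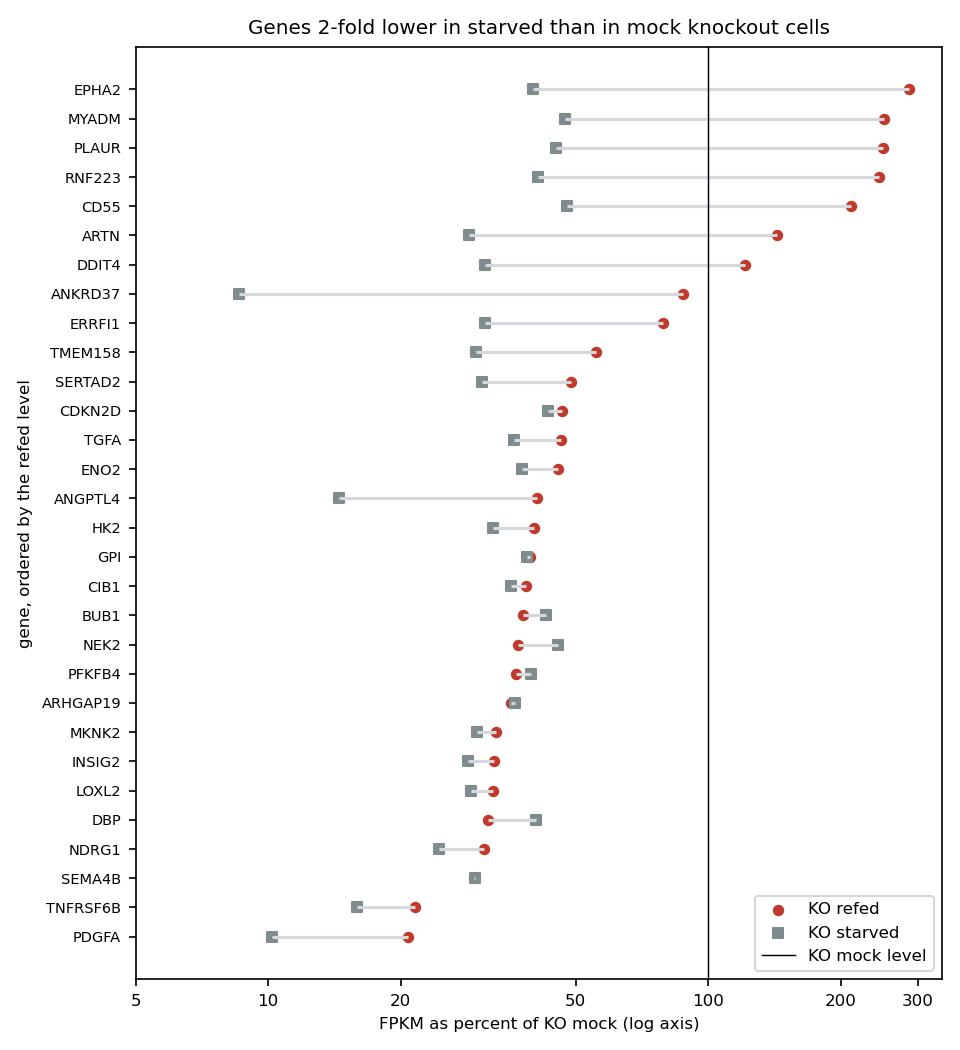
Level in refed and in starved KO cells as percent of the mock KO level, on a log axis, for named genes 2-fold lower in starved cells, ordered by the refed level, with a vertical line at the mock level. ANKRD37 lies at 87.8% in refed and 8.60% in starved cells, whereas both points of SEMA4B lie at 29.4% and 29.5%.

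Many hypoxia targets outside glycolysis were still below mock. Of 23 listed, 22 reached 1 FPKM. In refed cells 8 were at least 2-fold lower than mock, against 0.627% of all genes without short RNA, and 1 was higher. Their median log2 ratio was -0.92 in refed and -0.91 in starved cells, both against mock. NDRG1 stood at 151 FPKM in refed, 119 FPKM in starved and 488 FPKM in mock cells. LOXL2, a lysyl oxidase of the extracellular matrix, stood at 20.9 FPKM in refed, 18.6 FPKM in starved and 64.3 FPKM in mock cells. ANGPTL4, a secreted inhibitor of lipoprotein lipase, came partway back, at 35.5 FPKM in refed, 12.6 FPKM in starved and 87.1 FPKM in mock cells. P4HA1, which hydroxylates collagen, was at 71.9 FPKM in refed as in starved cells, against 167 FPKM in mock cells. VEGFA, the angiogenic growth factor, was near mock throughout, with a log2 ratio of 0.16. BHLHE40, a transcriptional repressor that is both a HIF target and an early serum gene, was the exception, at 146 FPKM in refed, 16.1 FPKM in starved and 25.8 FPKM in mock cells.

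The glycolytic genes lay on the same side. Of 22 genes for glucose uptake and glycolysis, all measured, 5 were at least 2-fold lower, against 0.627% of all genes without short RNA. None was higher, 20 had a log2 ratio below 0, and the median was -0.59 in refed and -0.62 in starved cells. GPI, the enzyme of the step after glucose phosphorylation, was at 139.9 FPKM in refed, 137 FPKM in starved and 355 FPKM in mock cells. PFKFB4, which makes an activator of phosphofructokinase, was at 12.8 FPKM in refed, 13.9 FPKM in starved and 35.1 FPKM in mock cells, and HK2, a hexokinase, at 10.3, 8.33 and 25.7 FPKM. ENO2 and PGK1 were at 45.5% and 46.0% of mock in refed cells. GAPDH, often taken as constant, was at 3781 FPKM in refed, 3865 FPKM in starved and 6542 FPKM in mock cells. GAPDH and PGK1 have processed pseudogenes that may share reads with them. PFKFB3, a serum-responsive relative of PFKFB4, was above mock at a log2 ratio of 0.69.

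ACGTG, the core of the hypoxia response element and part of the E-box CACGTG, was searched on both strands. It was in 12 of 20 promoters of the 18 hypoxia genes matched (60%) and in 18 of 47 promoters of the 21 glycolytic genes matched (38.3%), against 21.4% of all promoters. BHLHE40 (chr3:4979187-4979486, plus strand, 4 matches) and ANKRD37 (chr4:185396591-185396890, plus strand, 3 matches) are shown as the 1 member of the list called higher in refed cells and as a member far below mock in starved cells and near it in refed ones. Matches are in capitals, CACGT is the reverse strand, and a CACGTG counts on both strands:
BHLHE40: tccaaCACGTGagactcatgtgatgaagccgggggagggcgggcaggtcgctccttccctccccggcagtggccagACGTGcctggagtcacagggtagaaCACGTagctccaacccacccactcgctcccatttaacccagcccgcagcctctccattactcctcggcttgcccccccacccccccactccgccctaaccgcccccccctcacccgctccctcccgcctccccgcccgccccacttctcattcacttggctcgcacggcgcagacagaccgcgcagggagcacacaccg
ANKRD37: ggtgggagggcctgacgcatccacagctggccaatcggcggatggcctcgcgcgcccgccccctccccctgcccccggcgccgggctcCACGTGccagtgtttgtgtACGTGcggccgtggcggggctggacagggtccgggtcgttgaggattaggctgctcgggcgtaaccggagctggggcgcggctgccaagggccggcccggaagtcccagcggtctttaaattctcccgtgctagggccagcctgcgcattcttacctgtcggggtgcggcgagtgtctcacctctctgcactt

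Mitotic genes lay below mock in refed cells, in the median further below it than in starved cells. All 31 listed reached 1 FPKM and 31 of 31 had a log2 ratio of refed over mock below 0. At least 2-fold lower were 5, against 0.627% of all genes without short RNA, and none was higher. The median was -0.81 in refed and -0.55 in starved cells. BUB1, a spindle checkpoint kinase, was at 13.5 FPKM in refed, 15.2 FPKM in starved and 35.4 FPKM in mock cells. KIF20A, a kinesin of the central spindle, was at 14.8 FPKM in refed, 19.3 FPKM in starved and 37.2 FPKM in mock cells, and TTK, another checkpoint kinase, at 12.3, 15.3 and 30.9 FPKM. HMMR and CENPA, of the spindle and of the centromere, had log2 ratios of -1.15 and -1.02. The smallest differences were those of FOXM1, the factor that drives many of these genes, at -0.10, and of CCNB1 at -0.22. NEK2, a centrosome kinase outside the list, was at 14.0 FPKM in refed, 17.3 FPKM in starved and 38.0 FPKM in mock cells. In a bulk culture, fewer cells in a phase and less RNA in each of them cannot be told apart.

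TTTGAA, the cell cycle genes homology region, was found on either strand in 20 of 30 promoters of the 25 mitotic genes matched (66.7%), against 15.2% of all promoters. BUB1, KIF20A and TTK, further below mock than HMMR, had no match in a window read here. HMMR (chr5:163460382-163460681, plus strand) is shown as the furthest below mock of the genes with a match, here a tandem repeat, in capitals:
HMMR: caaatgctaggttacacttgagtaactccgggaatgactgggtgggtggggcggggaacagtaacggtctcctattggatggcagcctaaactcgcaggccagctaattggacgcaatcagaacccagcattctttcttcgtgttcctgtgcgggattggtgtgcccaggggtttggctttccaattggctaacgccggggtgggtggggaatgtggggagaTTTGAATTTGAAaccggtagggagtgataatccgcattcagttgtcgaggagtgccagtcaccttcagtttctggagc

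Genes of DNA replication stayed mostly within 2-fold of mock. All 32 were measured, 25 had a log2 ratio above 0 and 7 below it, 1 was at least 2-fold higher, against 1.57% of all genes without short RNA, and none lower, with a median of 0.31 in refed and 0.32 in starved cells. MCM5, a subunit of the replicative helicase, was at 49.8 FPKM in refed, 50.7 FPKM in starved and 24.0 FPKM in mock cells. The other MCM subunits from MCM2 to MCM7 had log2 ratios between 0.60 and 0.83. RRM2, TYMS and TK1, which supply nucleotides, were near mock at -0.16, 0.24 and 0.19. Of 19 measured G1 cyclins, E2F factors and CDK inhibitors, 3 were higher and 1 lower, with a median of 0.29. CCNE1, the G1/S cyclin, was at 24.7 FPKM in refed, 15.4 FPKM in starved and 10.3 FPKM in mock cells, and E2F1 at 18.4, 16 and 7.72 FPKM. CDKN1C, a CDK inhibitor, was at 61.9 FPKM in refed, 16.4 FPKM in starved and 25.5 FPKM in mock cells, whereas CDKN2D was lower, at 9.16, 8.51 and 19.7 FPKM. CDKN1B, an inhibitor of cyclin E and CDK2, was at 49.7% of mock in refed and 88.6% in starved cells, with a log2 ratio of -0.94 that did not reach 2-fold on the scale used. CCND1, the cyclin of mitogen response, had a log2 ratio of 0.53.

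The clearest group on the raised side was sterol synthesis. All 28 genes of cholesterol synthesis and uptake were measured and 26 had a log2 ratio above 0. At least 2-fold higher were 9, against 1.57% of all genes without short RNA, and 1, INSIG2, was lower. The median was 0.89 in refed and 0.71 in starved cells, both against mock. HMGCS1, an early enzyme of the mevalonate pathway, stood at 71.3 FPKM in refed, 47.1 FPKM in starved and 14.0 FPKM in mock cells, a log2 ratio of 2.27 in refed and 1.68 in starved cells. IDI1, the isoprenoid isomerase, stood at 116 FPKM in refed, 86.6 FPKM in starved and 42.3 FPKM in mock cells. INSIG1, a sterol-sensing brake on SREBP, stood at 124 FPKM in refed, 64.8 FPKM in starved and 47.4 FPKM in mock cells. Some enzymes were nearly as high in starved as in refed cells: ACAT2 was at 65.0 and 62.6 FPKM, and LSS at 50.6 and 49.0 FPKM, in refed and starved cells, against 27.3 FPKM and 21.7 FPKM in mock cells. Of 14 measured genes of fatty acid synthesis and activation none was called, the median was 0.36, and FASN, the fatty acid synthase, had the largest log2 ratio at 0.82.

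CCAAT, the binding letters of NF-Y, a partner of SREBP, was found on either strand in 18 of 27 promoters of the 21 cholesterol genes matched (66.7%), against 34.6% of all promoters. HMGCS1 (chr5:43313363-43313662, minus strand), the gene furthest above mock in the list, carries it at 2 places, in capitals and read as ATTGG on this strand:
HMGCS1: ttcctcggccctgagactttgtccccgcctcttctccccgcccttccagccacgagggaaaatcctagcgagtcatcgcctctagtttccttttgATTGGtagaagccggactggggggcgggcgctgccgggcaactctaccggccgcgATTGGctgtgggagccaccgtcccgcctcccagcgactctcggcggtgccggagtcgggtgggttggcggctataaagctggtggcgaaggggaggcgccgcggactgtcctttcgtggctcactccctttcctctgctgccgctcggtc

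Interferon-stimulated genes were also held above mock. Of 34 listed, 30 reached 1 FPKM and 29 had a log2 ratio above 0, with a median of 0.63 in refed as in starved cells. At least 2-fold higher were 5, against 1.57% of all genes without short RNA. PARP9, a PARP family member of the antiviral response, was at 28.3 FPKM in refed, 30.6 FPKM in starved and 10.7 FPKM in mock cells. BST2, which tethers budding virus, was at 4.55 FPKM in refed, 5.13 FPKM in starved and 1.43 FPKM in mock cells, and IFIT3, an RNA-binding antiviral protein, at 6.13, 7.48 and 2.52 FPKM. IFITM1, whose reads can be shared with IFITM2 and IFITM3, was at 15.8, 17.6 and 7.16 FPKM. OASL differed from these, being near mock in starved cells: it was at 22 FPKM in refed, 10.3 FPKM in starved and 9.13 FPKM in mock cells. ISG15, the most abundant member, was at 1708 FPKM in refed, 1384 FPKM in starved and 867 FPKM in mock cells. TAP1 alone lay below mock, at a log2 ratio of -0.21.

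GAAA followed after any 2 bases by another GAAA, the core of the interferon-stimulated response element, was found on either strand in 22 of 33 promoters of the 24 genes matched (66.7%), against 3.57% of all promoters. PARP9 (chr3:122564251-122564550, minus strand), the largest log2 ratio of the list, is shown with its match in capitals, on the reverse strand:
PARP9: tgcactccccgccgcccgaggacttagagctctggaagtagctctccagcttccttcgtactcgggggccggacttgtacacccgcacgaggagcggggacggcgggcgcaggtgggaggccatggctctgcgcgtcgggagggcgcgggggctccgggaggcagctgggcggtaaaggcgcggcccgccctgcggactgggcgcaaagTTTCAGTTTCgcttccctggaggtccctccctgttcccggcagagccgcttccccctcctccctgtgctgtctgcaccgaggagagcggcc

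Other genes that stayed higher came from different pathways. LBH, a transcription cofactor, was at 5.69 FPKM in refed, 3.45 FPKM in starved and 0.381 FPKM in mock cells. PLAT, the tissue plasminogen activator, was at 30.0 FPKM in refed, 33.1 FPKM in starved and 8.39 FPKM in mock cells. ATF5, a factor of the amino acid response, was at 15.6 FPKM in refed, 9.88 FPKM in starved and 3.40 FPKM in mock cells, the only one of 16 measured genes of that list called, in a list with a median log2 ratio of 0.09. AXIN2, a feedback inhibitor of Wnt signalling, was at 6.90 FPKM in refed, 8.98 FPKM in starved and 2.49 FPKM in mock cells. Among 13 measured Wnt genes SOX9 was the other one higher, at 26.4, 8.30 and 10.5 FPKM, and the list median was 0.14. The 4 raised genes that returned to within 2-fold of mock were SEPP1, IFIT1, PIK3IP1 and an uncharacterised LOC symbol. SEPP1 and IFIT1 were still at 197% and 185% of mock in refed cells. SEPP1, which encodes the selenium carrier selenoprotein P, was at 15.4 FPKM in refed, 19.0 FPKM in starved and 7.81 FPKM in mock cells. PIK3IP1, an inhibitor of PI3 kinase, was the low-level member at 1.88 FPKM in refed, 3.81 FPKM in starved and 1.06 FPKM in mock cells.

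Secreted and matrix-related regulators were mixed. Of all genes without short RNA, 1.57% were called higher. Of 7 measured plasminogen activators and serpins 4 were at least 2-fold higher, with a median log2 ratio of 1.16. Besides PLAT and PLAUR these were PLAU, the urokinase gene, at 85.3 FPKM in refed, 30.7 FPKM in starved and 32.8 FPKM in mock cells, and SERPINB8 at 4.92, 2.66 and 1.65 FPKM. Of 13 measured BMP and TGF-beta feedback genes 3 were higher and the median was 0.50. ID3, an inhibitor of helix-loop-helix factors, was at 467 FPKM in refed, 220.3 FPKM in starved and 202 FPKM in mock cells, BMP4 at 250.2, 193 and 117 FPKM, and SMAD7 at 18.1, 11.5 and 8.06 FPKM. Of 15 measured NF-kB targets the chemokines CXCL8 and CXCL2 were higher, at log2 ratios of 1.56 and 1.40, and the list median was 0.25. CXCL8 stood at 5.50 FPKM in refed, 1.03 FPKM in starved and 1.20 FPKM in mock cells.

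Lists of glucocorticoid-induced genes and of metallothioneins with zinc export genes held a few large differences. The share called higher over all genes without short RNA was 1.57%. Of 5 measured glucocorticoid-induced genes 2 were higher. CEBPD was at 27.0 FPKM in refed, 5.93 FPKM in starved and 7.59 FPKM in mock cells, and TSC22D3 at 20, 7.60 and 6.32 FPKM. SGK1 and GLUL were not called, at log2 ratios of 0.60 and 0.17, and the list median was 0.60. Of 5 measured metallothionein and zinc export genes SLC30A1, the zinc exporter, was at 30.5 FPKM in refed, 7.93 FPKM in starved and 8.94 FPKM in mock cells. MT1E was at 841 FPKM in refed, 341 FPKM in starved and 287 FPKM in mock cells, but metallothioneins are near-identical copies and their split is uncertain. The median of that list was 0.84.

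Several lists had 3 calls or fewer. Over all genes without short RNA, 1.57% were called higher and 0.627% lower. The 3 of 29, 3 of 21 and 1 of 20 below exceed the first share, the last through 1 gene. Ribosome biogenesis had 29 measured genes, 27 of them above 0, with 3 called higher and a median of 0.40 in refed and 0.30 in starved cells. RRS1 was at 31.0 FPKM in refed, 21.8 FPKM in starved and 12 FPKM in mock cells, and RRP12 at 21.9, 10.3 and 8.48 FPKM. NOP56, a component of small nucleolar ribonucleoproteins, was the third, at a log2 ratio of 1.03. The 25 cytosolic ribosomal proteins, which have many pseudogenes, had no call and a median of 0.17. The 17 heat shock chaperones had no call and a median of 0.09, and the 13 endoplasmic reticulum chaperones none and a median of -0.28. Of 21 measured p53 targets PLK2, PLK3 and AEN were higher, and the median was 0.00. Of 20 measured insulin signalling and FOXO targets CITED2 was higher, at 65.9 FPKM in refed, 20.6 FPKM in starved and 22.5 FPKM in mock cells, and the median was -0.33. The 19 enzymes and readers of H3K9 methylation, the mark that KDM3A removes, had no call and a median of -0.13 (KDM4D passed 2-fold lower with a pseudocount of 0.5 or 0.1), with KDM3B at a log2 ratio of 0.02. The 6 measured replication-dependent histones had none (HIST1H2AG passed 2-fold lower with a pseudocount of 0.1) and a median of 0.18, and their transcripts lack the poly(A) tail on which the libraries were selected.

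Markers of other cell types were few in KO cells. Of 8 fibroblast markers COL1A1 was at 50.7 FPKM in refed, 26.7 FPKM in starved and 18.7 FPKM in mock cells, and the other 7 were each below 0.1 FPKM. Leukocyte markers summed to 17.6 FPKM in refed, 19.2 FPKM in starved and 33.3 FPKM in mock cells, of which CD68 made 17.1, 18.6 and 32.9 FPKM. Endothelial markers had 1 member at the limit, ESAM, at a log2 ratio of -0.21, and hepatocyte and neuron markers had 2, MAP2 at -0.48 and SERPINA1 at 0.02. No listed mitochondrial transcript was found in the tables. The part of these markers in the results was not tested.

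**Figure D4:**
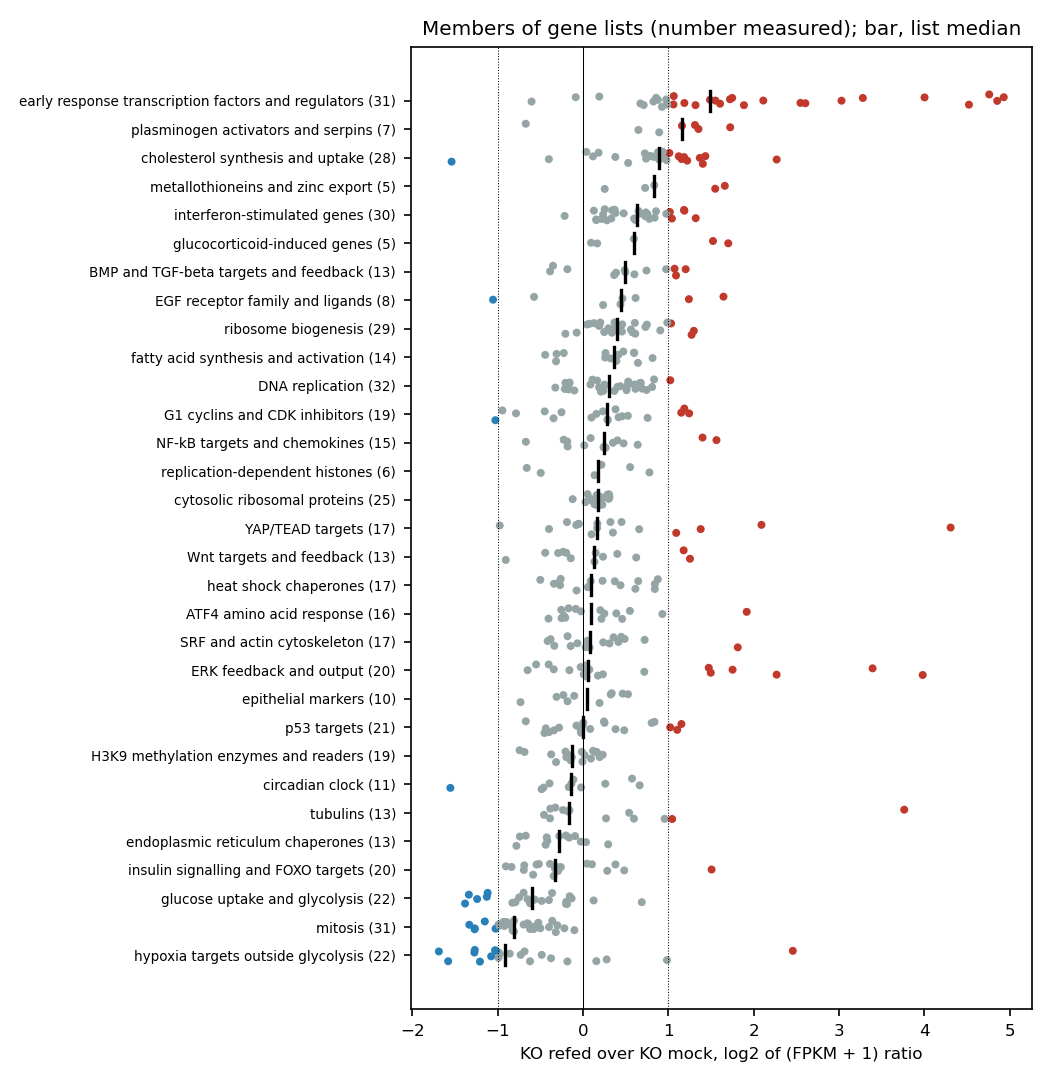
Log2 ratio of (FPKM + 1) of refed over mock KO cells for each measured member (points) of the gene lists with at least 5 measured genes, with the list median (bar), dotted lines at 2-fold and red and blue points beyond them. Early response genes extend from -0.60 to 4.93, all 31 mitotic genes lie below 0, and 26 of 28 cholesterol genes lie above it, with INSIG2 lowest at -1.54.

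Refed over mock was available in WT cells as well, from columns that share no sample with the KO comparison. Without short RNA, 159 genes were at least 2-fold higher in refed WT cells (1.26%) and 511 lower (4.03%), and the WT median log2 ratio was -0.22. The 159 include EEF1A1, listed at 0 in mock WT cells. Of the 195 genes higher in KO cells 97 were higher in WT cells too, which is 49.7% of the KO list and 61.0% of the WT list. Of the 78 genes lower in KO cells 64 were lower in WT cells, 82.1% of the KO list and 12.5% of the WT list. Mock WT cells held 87 genes at 4 times or more the level of every other group, endothelial markers among them, and leaving these out 424 genes were lower in WT cells and 64 in both genotypes.

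Several of the lists described above had medians on the same side of mock in both genotypes, and others did not. The median log2 ratio of refed over mock was 1.49 in KO and 1.58 in WT cells for early response genes, 0.89 and 0.87 for cholesterol genes, -0.81 and -1.14 for mitotic genes, -0.59 and -0.85 for glycolytic genes, and -0.92 and -1.20 for hypoxia targets. The medians were on opposite sides for BMP and TGF-beta targets, at 0.50 in KO and -0.42 in WT cells, for cytosolic ribosomal proteins, at 0.17 and -0.18, and for Wnt targets, at 0.14 and -0.34. The median of all genes was itself lower in WT cells, at -0.22 without short RNA. The ribosomal protein median of -0.18 in WT cells lay above that value. NR4A1 reached 796 FPKM in refed KO cells against 26.6 FPKM in mock KO cells, and 425 FPKM in refed WT cells against 6.02 FPKM in mock WT cells. CXCL8 was at 5.50 FPKM in refed and 1.20 FPKM in mock KO cells, and at 89.8 FPKM in refed and 7.99 FPKM in mock WT cells. Whether the genotypes differ in these responses was not tested.

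Some genes were above mock in KO cells and within 2-fold of mock in WT cells on the log2 ratio of (FPKM + 1). That ratio understates differences near or under 1 FPKM, where TUBB2B and LBH lay in WT cells. TUBB2B was at 20.1 FPKM in refed and 0.550 FPKM in mock KO cells, and at 1.30 FPKM in refed and 0.727 FPKM in mock WT cells. LBH was at 5.69 FPKM in refed and 0.381 FPKM in mock KO cells. In WT cells LBH was lower in refed than in mock cells, at 0.258 FPKM and 0.666 FPKM. PLAT was at 30.0 FPKM in refed and 8.39 FPKM in mock KO cells, and at 7.59 FPKM in refed and 6.92 FPKM in mock WT cells. In 6 genes the directions were opposite past 2-fold, all higher in refed KO and lower in refed WT cells: CDKN1C, EDN1, KRT7, RHOV, TAGLN and THBS1. In THBS1 the values were 14.0 FPKM in refed and 1.30 FPKM in mock KO cells, and 35.7 FPKM in refed and 175 FPKM in mock WT cells. EDN1, the vasoconstrictor endothelin, was at 4.22 FPKM in refed and 0.131 FPKM in mock KO cells, and at 4.18 FPKM in refed and 16.5 FPKM in mock WT cells. In all 6 the mock column held the highest of the 3 WT values, and that column also holds 196 FPKM of endothelial markers, whose part in these differences was not tested. THBS1 is 1 of the 87 genes 4-fold higher in mock WT cells, and without those genes the other 5 of the 6 remained opposite.

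**Figure D5:**
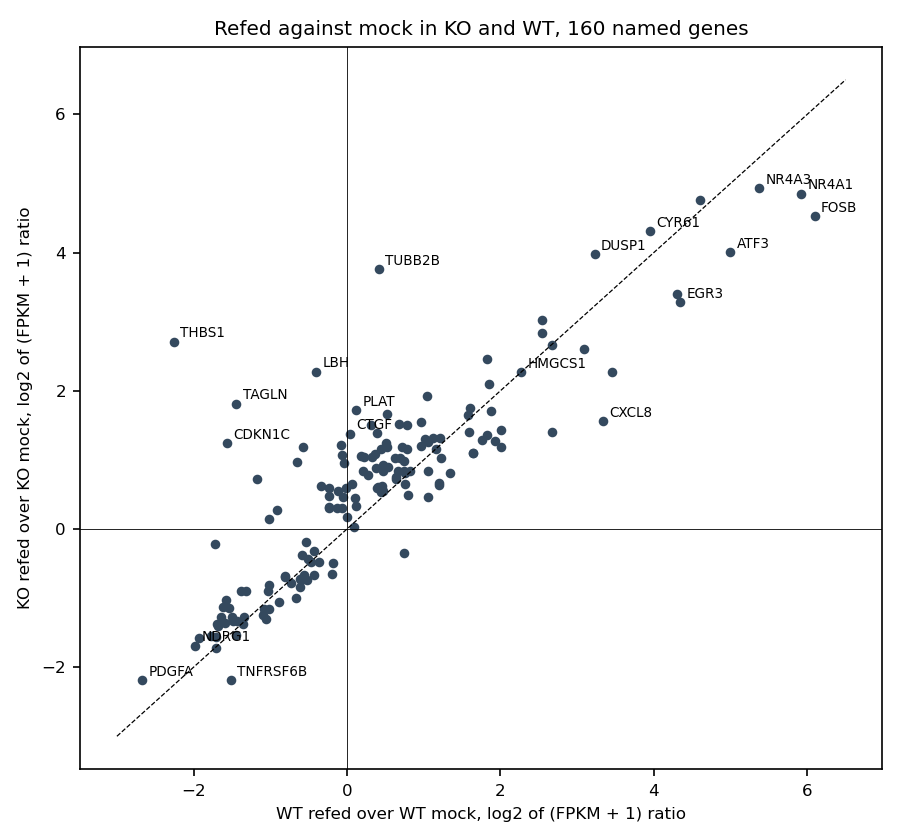
Log2 ratio of (FPKM + 1) of refed over mock in KO cells (vertical axis) against the same ratio in WT cells (horizontal axis), 1 point per named gene, with a dashed line where both ratios are equal. NR4A1, NR4A3 and FOSB lie at upper right and PDGFA at lower left, and THBS1, TAGLN and CDKN1C lie at upper left, higher in refed KO and lower in refed WT cells than in mock cells of the same genotype.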

How the data were processed

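RNA was measured in 12 labelled samples, 2 in each of 6 groups of 2 genotypes and 3 culture states. Per the submitters' processing notes, the authors used FastQC, cutadapt and TopHat2 with human build hg19, and the deposited values are FPKM. The program that computed FPKM, its annotation, the strand setting and versions are not given in the sources used here. Depth is unknown: below 0.2 FPKM, ratios of refed over mock KO values repeat at 0.957 in 59 and at 0.938 in 30 of 3317 genes, so no common step of 1 read was recovered.

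Values were used as deposited. The log2 ratio of (FPKM + 1) was taken over genes at 1 FPKM in either column, with calls at 2-fold. "Lowered" and "raised" mean 2-fold from mock in starved KO cells. "Returned" means within 2-fold of mock in refed cells. Named genes were KDM3A, the 15 largest log2 ratios in each direction and the 6 largest of each class at 5 FPKM or more, and up to 4 members of each list, and short RNA, LOC and read-through symbols were not ranked. Genes named beyond these were chosen after their values were seen. The 36 gene lists were early response, ERK feedback, EGF family, YAP/TEAD, SRF and actin, G1 regulators, DNA replication, mitosis, ribosome biogenesis, ribosomal proteins, cholesterol, fatty acid, glycolysis, hypoxia, ATF4, heat shock, endoplasmic reticulum chaperones, p53, Wnt, FOXO, NF-kB, BMP/TGF-beta, plasminogen, circadian, glucocorticoid, metallothionein, interferon, tubulins, H3K9 enzymes, histones, and markers of 5 cell kinds plus mitochondrial transcripts. Members and lists were chosen with earlier results of these data known. Alternatives were pseudocounts of 0.1 and 0.5, no filter, a filter of 5 FPKM, median-ratio and upper-quartile rescaling, and leaving out short RNA. Matplotlib 3.10.9, pandas 2.3.3 and numpy 2.4.6 were run under Python 3.11.15, and the calls were checked on simulated data.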

Additional observations from a re-analysis of the deposited data

Results flagged for a closer look

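In 3 of the named genes the log2 ratio of refed over mock lay past 2-fold in opposite directions in the genotypes. KO minus WT, the log2 ratios differed by 2.81 in CDKN1C, by 3.26 in TAGLN and by 4.97 in THBS1. CDKN1C had 61.9 FPKM in refed and 25.5 FPKM in mock KO cells, and 5.16 FPKM in refed and 17.2 FPKM in mock WT cells. TAGLN had 28.4 FPKM in refed and 7.36 FPKM in mock KO cells, and 13.5 FPKM in refed and 38.4 FPKM in mock WT cells. THBS1 had 14.0 FPKM in refed and 1.30 FPKM in mock KO cells, and 35.7 FPKM in refed and 175 FPKM in mock WT cells. It is 1 of the 87 genes at least 4-fold higher in mock WT cells than in every other group. The difference between genotypes was not tested, since each group has 1 value. Mock WT cells also held 196 FPKM of endothelial markers, against 4.72 FPKM in refed WT cells, and the part of that signal in these differences was not tested.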

How the results depend on the processing

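Counts here include short RNA features unless stated. At the main settings 127 features were lower in refed than mock KO cells. In starved cells 159 were lowered, of which 84 stayed lower and 6 overshot. Raised features numbered 89, of which 70 stayed higher, 18 returned and 1 overshot. Within 2-fold of mock in starved and lower in refed cells were 42, and 75 were lower in both genotypes. With a pseudocount of 0.1 the counts moved most. There were 274 genes lower in refed than mock KO cells, 293 lowered in starved cells, 177 that stayed lower and 14 lowered that overshot. Raised genes numbered 183, of which 140 stayed higher and 42 returned. Within 2-fold of mock in starved and lower in refed cells were 96, and 188 were lower in both genotypes. With 0.5, 28 raised genes returned and 67 were within 2-fold of mock in starved and lower in refed cells. Without a filter 57 raised genes returned, and at 5 FPKM 10 did and 0 raised genes overshot. Median-ratio rescaling left 47 lower in both genotypes. Without short RNA, the set used for the gene classes in the results, 195 were higher, 78 lower and 51 stayed lower. At the same setting 33 were raised, of which 29 stayed higher, 4 returned and 0 overshot. At that setting 27 were within 2-fold of mock in starved and lower in refed cells. No named gene past 2-fold changed sign under the pseudocounts and rescalings run. The median of all genes, -0.05, was 0.0014 under median-ratio rescaling. Of 160 named genes, 8 crossed the 2-fold line with a pseudocount of 0.1, 3 with 0.5, 5 under median-ratio and 1 under upper-quartile rescaling. With 0.1 KDM4D reached -1.42 and HIST1H2AG -1.04, so these genes are calls in the H3K9 and histone lists at that setting. Under median-ratio rescaling TGFA and CDKN2D (-0.97) were no longer past 2-fold. The list median turned negative for ATF4 genes at 5 FPKM (-0.02) and for p53 targets under upper-quartile rescaling (-0.01). Leaving out the 87 genes 4-fold higher in WT mock cells was chosen after seeing the data. No paired analysis was possible because each group has 1 column with no replicate number, and for the same reason no replicate could be left out. Depth is unknown, so no counting interval can be given, and values under 1 FPKM are the least certain.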

Other observations

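Keratin genes outside the epithelial list were chosen after their values were seen, and not all were called. KRT16 returned to within 2-fold of mock, at a log2 ratio of -0.23. It was at 4.65 FPKM in refed, 1.90 FPKM in starved and 5.61 FPKM in mock KO cells. Called higher were KRT17, at 10.2 FPKM in refed, 1.58 FPKM in starved and 1.32 FPKM in mock cells, and KRT80, at 16.6, 7.27 and 5.96 FPKM. So were KRT23, at 17.8, 11.6 and 6.72 FPKM, and KRT7, at 17.1, 15.2 and 7.89 FPKM. Keratin genes are close relatives with pseudogenes, so their split is uncertain. In WT cells KRT17 was at 1.28 FPKM in refed and 0.20 FPKM in mock cells. FGFBP1, a carrier of fibroblast growth factors, was at 149 FPKM in refed, 38.0 FPKM in starved and 24.5 FPKM in mock KO cells, and AVPI1 at 191, 20.1 and 33.4 FPKM. MYL2, a cardiac myosin light chain, was at 21.6 FPKM in refed, 22.3 FPKM in starved and 10.1 FPKM in mock KO cells, but at 0.0832 FPKM in refed and 0.0319 FPKM in mock WT cells.

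Of other genes that stayed higher, UNG, which removes uracil from DNA, was at 36.1 FPKM in refed, 38.2 FPKM in starved and 15.5 FPKM in mock KO cells. CKAP2, a spindle protein, was within 2-fold of mock in starved and past it in refed KO cells. It was at 9.89 FPKM in refed, 13.1 FPKM in starved and 23.3 FPKM in mock cells, so already below mock in starved cells.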
